A study of Mus musculus with 6 samples.

Results

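Chemoattractant receptors are cell surface proteins that couple to heterotrimeric G proteins and steer migrating cells toward chemokines or toward the fragments C3a and C5a, which are cut from complement proteins. Myeloid cells, among them monocytes, macrophages and the precursors of osteoclasts, carry many of them, and in bone they are known for guiding precursors to the sites where osteoclasts form. The 7 genes described here, *Ccr1*, *Ccr2*, *Ccr7*, *Cxcr4*, *Cx3cr1*, *C5ar1* and *C3ar1*, were taken by symbol from the 55573 genes in the deposited counts. All 7 had enough counts to be among the 16954 genes tested.

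The RNA-Seq compared control and HES1-overexpressing osteoclasts, with 3 libraries in each group. Bone marrow-derived macrophages (BMMs) from 10-week-old male mice received, over 4 days of culture, M-CSF (macrophage colony-stimulating factor, 30 ng/ml), which sustains the precursors, and RANKL (the ligand of the receptor activator of NF-κB, 10 ng/ml), which turns them into osteoclasts. In *Ctsk*-Cre/WT;*Rosa*-Hes1 cells (called Rosa-Hes1 here), Cre knocked into the cathepsin K locus removes a STOP cassette at *Rosa26* and releases HES1-IRES-GFP, so that induction is limited to cells that express *Ctsk*. The labels call the controls wild type, whereas the study's methods describe *Rosa*-[STOP]Hes1 littermates, which carry the transgene with its STOP cassette and no Cre. Cre mice were on a C57BL/6 background and the *Rosa* allele came from an ICR background. Samples are described as biological replicates, but the sources used here do not say whether each library came from its own mouse, and p-values then measure only the spread between these libraries.

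Each library held 13038362 to 15956331 counts in genes. Levels are given as CPM, the normalized read counts that put all libraries on the same total after TMM scaling, and a gene was called higher or lower in Rosa-Hes1 at a Benjamini-Hochberg adjusted p under 0.05 in edgeR's quasi-likelihood test over all genes tested. *Hes1* had 0.296 to 0.557 CPM in control and 4.83 to 6.91 CPM in Rosa-Hes1 libraries (log2 fold change 3.57 ± 0.30 SE, edgeR adjusted p = 0.00477). Markers of osteoclasts were present in every library, and 9 of 10 were higher in Rosa-Hes1 (9 also without replicate 2 of either group, and 2 to 6 without 1 of the other libraries). Their summed level was 10755 to 13810 CPM in control and 17050 to 20015 CPM in Rosa-Hes1 libraries. In cultures of the same kind, the study counted more osteoclasts from Rosa-Hes1 mice than from control littermates, and more of them with many nuclei. Because RNA came from whole cultures, a different number of osteoclasts and a different amount of RNA per cell cannot be told apart in these libraries.

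Of the 7 receptors, *Ccr1* was higher in Rosa-Hes1 osteoclasts, by 1.64-fold. *Cxcr4*, *Cx3cr1*, *C5ar1* and *C3ar1* were lower, with control levels 1.41 to 1.62 times those of Rosa-Hes1. *Ccr2* and *Ccr7* did not pass the test. The 5 called receptors compare with 8.25% of all genes tested that were called, 5.85% higher and 2.41% lower. The same 5 receptors had no overlap between the 3 libraries of each group, as did 31.2% of all genes tested. The median log2 fold change was -0.50 over the 7 receptors and -0.01 over all genes tested. Of these calls, the rise of *Ccr1* remained when any 1 library was left out, whereas the number of lower receptors then ranged from 0 to 4. It was 4 only without control replicate 2, 1 (*C3ar1*) without Rosa-Hes1 replicate 2 or 3, and 0 without replicate 1 of either group or control replicate 3. All 4 kept a negative log2 fold change each time.

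**Figure D1:**
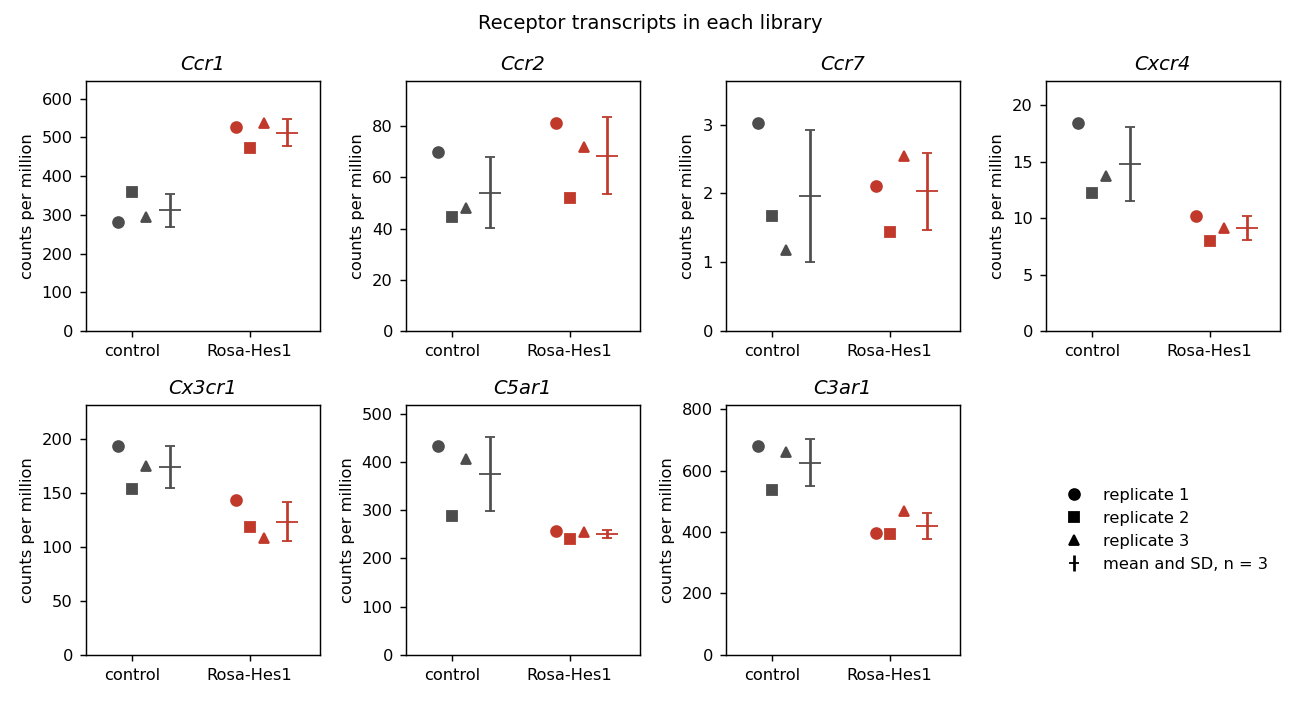
Level of each receptor transcript in CPM (y axis, starting at 0) in the 3 control and 3 Rosa-Hes1 libraries; symbols mark the replicate number, and the cross bars give the mean and SD. *Ccr1* lies above the controls in all 3 Rosa-Hes1 libraries, *Cxcr4*, *Cx3cr1*, *C5ar1* and *C3ar1* lie below them, and *Ccr2* and *Ccr7* overlap.

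Sequence upstream of the RefSeq start is shown for the 4 called receptors whose upstream window held at least 100 bases free of annotated exons, since HES1 is a DNA-binding repressor and these genes differed in opposite directions. The sequences are RefSeq's (GRCm38.p6), each read 5′ to 3′ on the gene's own strand, and all 4 genes lie on the minus strand. Capitals mark the N box, CACNAG on either strand, a motif that HES proteins are known to bind. The *Ccr1* stretch is chr9:123968693-123968942, that of *Cxcr4* is chr1:128592300-128592549, that of *C5ar1* is chr7:16259339-16259512, which lies within the GENCODE gene because an annotated transcript starts farther upstream, and that of *C3ar1* is chr6:122856162-122856407.
Ccr1: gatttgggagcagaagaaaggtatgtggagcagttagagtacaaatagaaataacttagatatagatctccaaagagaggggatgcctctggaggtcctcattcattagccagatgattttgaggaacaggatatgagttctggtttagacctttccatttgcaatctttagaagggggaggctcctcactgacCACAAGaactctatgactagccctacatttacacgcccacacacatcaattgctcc
Cxcr4: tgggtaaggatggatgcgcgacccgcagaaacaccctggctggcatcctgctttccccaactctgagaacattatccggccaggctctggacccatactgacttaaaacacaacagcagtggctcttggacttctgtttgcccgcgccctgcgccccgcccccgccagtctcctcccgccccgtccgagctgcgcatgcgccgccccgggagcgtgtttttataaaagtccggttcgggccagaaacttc
C5ar1: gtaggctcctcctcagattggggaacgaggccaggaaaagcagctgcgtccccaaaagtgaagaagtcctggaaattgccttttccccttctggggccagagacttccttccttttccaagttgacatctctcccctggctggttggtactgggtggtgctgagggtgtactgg
C3ar1: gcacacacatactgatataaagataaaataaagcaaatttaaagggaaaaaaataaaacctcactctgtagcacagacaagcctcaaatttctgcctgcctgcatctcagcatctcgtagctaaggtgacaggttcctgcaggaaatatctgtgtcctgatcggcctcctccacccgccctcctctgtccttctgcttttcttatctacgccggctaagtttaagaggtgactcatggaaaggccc

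RefSeq windows of the 250 bases before the start were at hand for 6 of the 7 receptors, *Ccr7* having no entry in the table used. An N box was found in 2 of them. In *Ccr1* it read CACAAG and began at position -56, counted from the RefSeq start with upstream negative, and in *C5ar1* it read CACCAG and began at position -250, outside the stretch printed above. The class C site CACGNG, another HES motif, which shares CACGAG with the N box, was found in none of the 6 windows. GAGGAA, the purine-rich core known for the myeloid factor PU.1, was found only in *Ccr1*, at position -129. Of 32851 windows of the same length in the table, 36.7% held an N box, 23.5% a class C site and 23.3% GAGGAA on either strand. A match to such short letters is a description of the sequence and not a binding site.

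*Ccr1* (ENSMUSG00000025804, chromosome 9 from 123962124 to 123968692 on GRCm38, minus strand) encodes a receptor for the inflammatory chemokines CCL3, CCL5 and, in the mouse, CCL9, and is known for its role in osteoclast precursors. The control libraries had 280.5, 359.8 and 294 CPM, from 3800, 5812 and 3976 counts. In the Rosa-Hes1 libraries the levels were 528, 472 and 538 CPM, from 8000, 7226 and 7398 counts. Every Rosa-Hes1 library lay above every control, and control replicate 2 was the control nearest to them. The mean was 311 ± 42.4 CPM in the controls against 512 ± 35.7 CPM in Rosa-Hes1 osteoclasts (SD, n = 3 per group; log2 fold change 0.72 ± 0.10 SE, edgeR adjusted p = 0.00770). *Ccr1* passed in all 14 alternative analyses, which left out 1 library or used another tool or setting, with adjusted p up to 0.0445 and log2 fold changes of 0.65 to 0.83 when 1 library was left out.

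*Ccr2* (ENSMUSG00000049103, chromosome 9 from 124101950 to 124113557, plus strand) encodes the main receptor for CCL2, which brings inflammatory monocytes out of the marrow. Its levels were 69.9, 44.4 and 47.9 CPM in the controls against 81.3, 51.9 and 71.9 CPM in Rosa-Hes1 libraries. The groups overlapped, with control replicate 1 above Rosa-Hes1 replicate 2. The means were 54.1 ± 13.8 and 68.4 ± 15.003 CPM (SD, n = 3 per group), and the difference missed the threshold (log2 fold change 0.34 ± 0.22 SE, edgeR adjusted p = 0.389). Of the distinct 75-base words in its transcripts, 78 of 6734 (1.16%) also occur in transcripts outside the gene, so that few of its reads could be assigned elsewhere.

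Within a library, the ratio of *Ccr1* to *Ccr2* counts does not depend on the scaling between libraries. It was 4.01, 8.11 and 6.14 in control and 6.49, 9.08 and 7.48 in Rosa-Hes1 libraries. These ranges overlap, and the mean log2 ratio was higher by 0.38 in Rosa-Hes1 (2.93 ± 0.24 against 2.55 ± 0.51, SD, n = 3 per group; exact two-sided permutation test, p = 0.4, adjusted p = 0.8 over 2 ratios). The difference in the mean log2 ratio was 0.11 without control replicate 1 and 0.62 without control replicate 2. With 3 libraries against 3 the smallest p of this test is 0.1. The test did not show a difference between the changes of *Ccr1* and *Ccr2*.

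*Ccr7* (ENSMUSG00000037944, chromosome 11 from 99144196 to 99155077, minus strand) encodes the receptor for CCL19 and CCL21, which leads mature dendritic cells and lymphocytes to lymph nodes. It had the fewest reads of the 7, with 41, 27 and 16 counts in control and 32, 22 and 35 counts in Rosa-Hes1 libraries. These correspond to 3.03, 1.67 and 1.18 CPM in control and to 2.11, 1.44 and 2.54 CPM in Rosa-Hes1. Control replicate 1 was the highest of the 6 libraries and control replicate 3 the lowest. No difference was detected (log2 fold change 0.05 ± 0.37 SE, edgeR adjusted p = 0.957), and its sign changed on leaving out replicate 3 of either group or control replicate 2.

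*Cxcr4* (ENSMUSG00000045382, chromosome 1 from 128588199 to 128592293, minus strand) encodes the receptor for CXCL12, a chemokine of marrow stroma that holds hematopoietic cells in the marrow. Control libraries had 18.5, 12.2 and 13.8 CPM (250, 197 and 186 counts). Rosa-Hes1 libraries had 10.2, 8.03 and 9.16 CPM (154, 123 and 126 counts). All 3 Rosa-Hes1 libraries lay below the lowest control, and the spread was wider among the controls. Its mean of 14.8 ± 3.26 CPM fell to 9.11 ± 1.07 CPM (SD, n = 3 per group; log2 fold change -0.70 ± 0.17 SE, edgeR adjusted p = 0.0439). The call was lost on leaving out any library but control replicate 2 (adjusted p 0.0738 to 0.128), with edgeR's filterByExpr (adjusted p = 0.0504) and with limma-voom (adjusted p = 0.0603).

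*Cx3cr1* (ENSMUSG00000052336, chromosome 9 from 119901616 to 120069879, minus strand) encodes the receptor for fractalkine, CX3CL1, and is a known mark of monocytes and osteoclast precursors. It had 193, 154 and 175 CPM in the controls against 143, 119 and 108 CPM in Rosa-Hes1 libraries. The highest Rosa-Hes1 library lay just below the lowest control. Mean levels were 174 ± 19.6 and 123 ± 18.0 CPM (SD, n = 3 per group; log2 fold change -0.50 ± 0.12 SE, edgeR adjusted p = 0.0404). Leaving out any library but control replicate 2 lost the call (adjusted p 0.0556 to 0.133), as did limma-voom (adjusted p = 0.0512). A long annotated transcript makes the gene span other genes, but 78 of its 4505 exonic bases (1.73%) are shared with an exon of another gene, *Gm33858* on the opposite strand.

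*C5ar1* (ENSMUSG00000049130, chromosome 7 from 16246743 to 16259540, minus strand) encodes the receptor for C5a, the most potent of the complement fragments that attract phagocytes. Levels were 432, 289 and 406 CPM in the controls against 256, 241 and 255 CPM in Rosa-Hes1 libraries. The Rosa-Hes1 libraries lay close together and below every control, of which replicate 2 was the lowest. The controls averaged 376 ± 76.3 CPM and Rosa-Hes1 cells 251 ± 8.49 CPM (SD, n = 3 per group; log2 fold change -0.58 ± 0.14 SE, edgeR adjusted p = 0.0410). The call held without control replicate 2 and was lost without any other library (adjusted p 0.0900 to 0.143), with no filter on low counts (adjusted p = 0.0559) and with limma-voom (adjusted p = 0.0547).

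*C3ar1* (ENSMUSG00000040552, chromosome 6 from 122847138 to 122856161, minus strand) encodes the receptor for C3a. With 679, 537 and 662 CPM in the controls against 396, 394 and 469 CPM in Rosa-Hes1 libraries, it took more reads than any other member in control, from 8678 to 9199 counts. Again no Rosa-Hes1 library reached the lowest control, which was replicate 2. The mean of 626 ± 77.5 CPM fell to 419.8 ± 42.9 CPM (SD, n = 3 per group; log2 fold change -0.58 ± 0.11 SE, edgeR adjusted p = 0.0177). It passed in 11 of 14 alternatives, and not without replicate 1 of either group or control replicate 3 (adjusted p 0.0649 to 0.1004).

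The proportion of the C5a receptor to the C3a receptor differed between the groups by less than the spread between libraries. The within-library ratio of *C5ar1* to *C3ar1* counts was 0.637, 0.538 and 0.612 in control and 0.646, 0.611 and 0.544 in Rosa-Hes1 libraries. Each group thus spanned nearly the same range, and the mean log2 ratios were -0.75 ± 0.13 and -0.74 ± 0.13 (SD, n = 3 per group; difference 0.01, exact two-sided permutation test, p = 0.8, adjusted p = 0.8 over 2 ratios). *Ccr1* moved against both. Its count ratio to *C3ar1*, chosen after the values were seen and given with no test, was 0.413, 0.670 and 0.444 in control and 1.332, 1.197 and 1.146 in Rosa-Hes1 libraries.

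Levels of different receptors were compared per kb of exon, because a longer transcript collects more reads. Per kb, *C5ar1* (146 ± 29.7), *C3ar1* (145 ± 18.0) and *Ccr1* (109.9 ± 14.98 CPM per kb, SD, n = 3) led in control osteoclasts, and the ranges of neighbors in this order overlapped. *Cx3cr1* followed at 38.7 ± 4.35 CPM per kb, clear of *Ccr1* above it and of *Cxcr4* below it. *Cxcr4* (8.19 ± 1.80) and *Ccr2* (7.998 ± 2.04 CPM per kb) overlapped, and *Ccr7* was last at 0.991 ± 0.483 CPM per kb. In Rosa-Hes1 osteoclasts *Ccr1* was first at 181 ± 12.6 CPM per kb, and its range did not reach that of *C5ar1* (97.5 ± 3.30) or *C3ar1* (97.5 ± 9.96 CPM per kb), which overlapped. Then came *Cx3cr1* at 27.4 ± 4.00, *Ccr2* at 10.1 ± 2.22, *Cxcr4* at 5.04 ± 0.590 and *Ccr7* at 1.03 ± 0.283 CPM per kb, none of which overlapped its neighbor. *Ccr1* made up 24.0% of the summed mean level per kb of the 7 receptors in control and 43.1% in Rosa-Hes1. Among the tested genes with an annotated length, 98.2% lay below *Ccr1* in level per kb over all libraries, 97.8% below *C5ar1*, 97.7% below *C3ar1* and 33.8% below *Ccr7*.

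**Figure D2:**
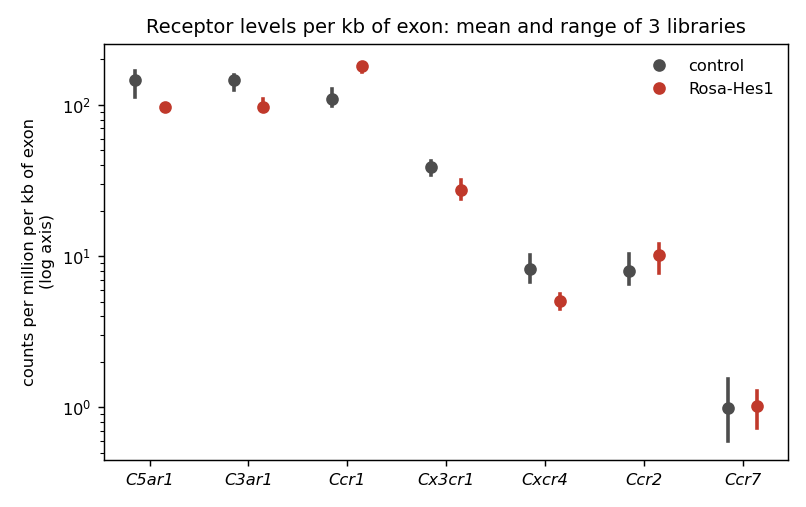
Level of each receptor in CPM per kb of exon on a log axis, with the genes in their order in control; points are means and vertical lines the range of 3 libraries per group. *Ccr1* is in the third place in control and first in Rosa-Hes1, and *Ccr7* is last in both groups.

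*Ccr1* and *Ccr2* lie in a cluster of chemokine receptor genes on chromosome 9, with starts 133 kb apart. Of 33 annotated genes described here lying at least partly within 500 kb of them, 16 were tested, 2 were higher in Rosa-Hes1 (*Ccr1* itself and *Ccr3*, against 5.85% of all genes tested) and 14 were not called. *Ccr3*, which encodes the eotaxin receptor of eosinophils and starts 53.3 kb from *Ccr1*, had 45.1, 59.4 and 47.9 CPM in the controls against 77.1, 65.1 and 78.9 CPM in Rosa-Hes1 libraries (log2 fold change 0.53 ± 0.12 SE, edgeR adjusted p = 0.0311). For both genes every Rosa-Hes1 library lay above every control. Leaving out replicate 1 or 3 of either group lost the call for *Ccr3* (adjusted p 0.0949 to 0.124).

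**Figure D3:**
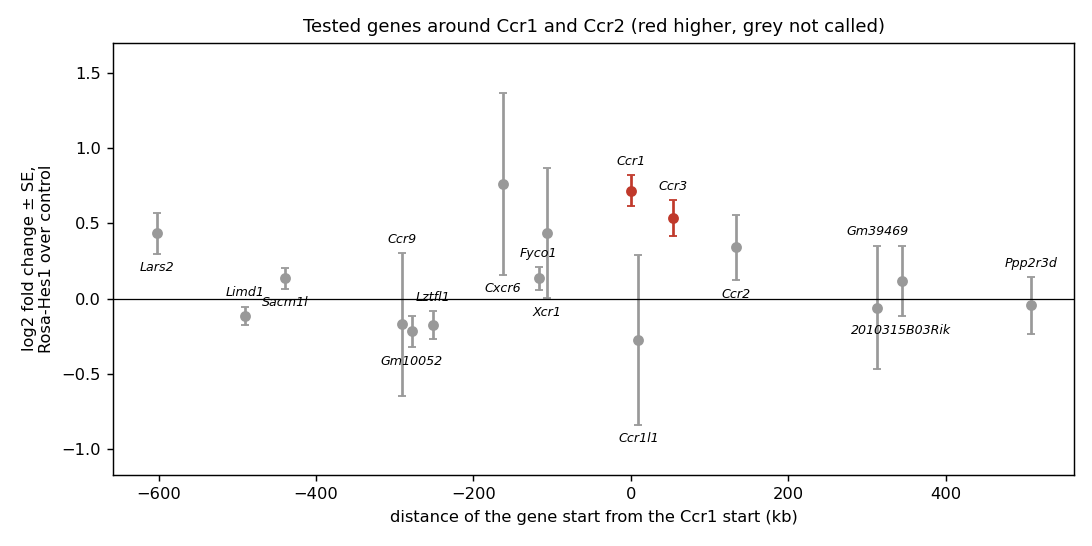
Log2 fold change of Rosa-Hes1 over control with its standard error (y axis) for 16 tested genes around *Ccr1* and *Ccr2*, by the distance of each gene's start from that of *Ccr1* in kb (x axis). *Ccr1* and *Ccr3* are higher (red) and the others are not called (grey).

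In the wider family of chemoattractant receptors, 23 of 29 other genes described here were tested, 2 of them higher and 1 lower (8.25% of all genes tested were called in either direction), and the median log2 fold change was 0.06. *Gpr183*, which encodes an oxysterol receptor known to direct osteoclast precursors toward bone surfaces, was higher, with 75.9, 95.2 and 84.6 CPM in the controls against 179.7, 131 and 169 CPM in Rosa-Hes1 libraries (log2 fold change 0.91 ± 0.13 SE, edgeR adjusted p = 0.00834). It passed in all 14 alternatives. *Ptafr*, the gene for the receptor of platelet-activating factor, was lower, with 107, 124 and 122 CPM in the controls against 66.4, 78.1 and 97.9 CPM in Rosa-Hes1 libraries (log2 fold change -0.55 ± 0.13 SE, edgeR adjusted p = 0.0459). That call was lost without any library but Rosa-Hes1 replicate 3 (adjusted p 0.0843 to 0.128). *Ccr3* is the other called gene.

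Genes for ligands of the 7 receptors were not called. Of 16, 13 were tested, and edgeR called 0 at an adjusted p under 0.05, against 8.25% of all genes tested. It found 2 at an unadjusted p under 0.05 (*Ccl2* and *Ccl8*), a threshold that at least 4322 of the 16954 genes tested passed. DESeq2 and limma-voom also called 0. Without Rosa-Hes1 replicate 2, edgeR called 1 higher, *Mif*, for a cytokine that also binds CXCR4. The median log2 fold change of the 13 was -0.23. *Ccl9*, a CCR1 ligand, was abundant in both groups, at 1010.1 ± 65.7 CPM in the controls against 1063 ± 66.1 CPM in Rosa-Hes1 osteoclasts. *C3*, from whose product C3a is cut, had 1331 ± 246 and 1195 ± 279.8 CPM (SD, n = 3 per group). *Ccl2*, for the chief CCR2 ligand, had 110.3 ± 19.6 CPM in the controls against 80.8 ± 17.2 CPM in Rosa-Hes1 (log2 fold change -0.45 ± 0.19 SE, edgeR adjusted p = 0.185). *Mif* had 219 ± 5.32 CPM in the controls against 261 ± 47.4 CPM in Rosa-Hes1 cells. Low levels were found for *Cxcl12*, the other CXCR4 ligand of the list, and for the ligands of the remaining receptors. *Cxcl12* had 1.36 ± 0.49 CPM and *Cx3cl1* 0.81 ± 0.44 CPM in control, *Ccl19* and *Ccl21a* had 0 counts in all 6 libraries, and *Hc*, which encodes C5, had 1 count in all. In any single library, a count of 0 leaves room for an expected count of up to 3, a limit that is tighter where all 6 libraries had 0.

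**Figure D4:**
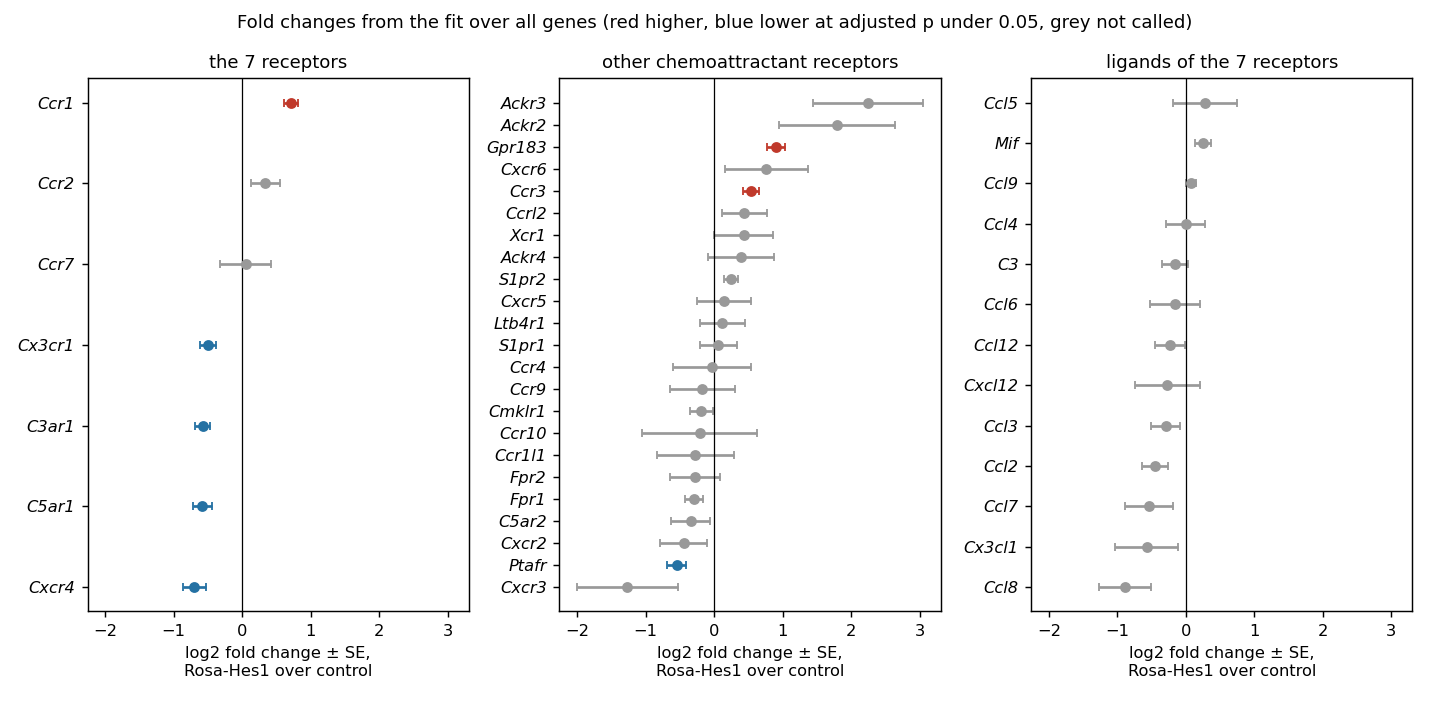
Log2 fold change of Rosa-Hes1 over control with its standard error (x axis) for the 7 receptors (left), 23 other chemoattractant receptors tested (middle) and the 13 ligand genes tested (right), from edgeR's fit over all genes. Red points were called higher and blue points lower at an adjusted p under 0.05, and no ligand gene was called.

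Inside the cell these receptors act through G proteins, kinases and arrestins that shut them off, and enzymes such as phosphoinositide 3-kinase γ. All 34 genes of that list were tested, 3 higher and 4 lower, against 5.85% higher and 2.41% lower among all genes tested, with a median log2 fold change of -0.06. *Grk3*, for a kinase that phosphorylates activated receptors, went from 266 ± 22.1 to 417 ± 18.5 CPM (log2 fold change 0.65 ± 0.08 SE, edgeR adjusted p = 0.00559). *Plcb2*, for a phospholipase C activated by G proteins, went from 117 ± 12.1 to 182 ± 14.7 CPM (log2 fold change 0.64 ± 0.09 SE, edgeR adjusted p = 0.00821). Both passed in all 14 alternatives. *Rgs10*, for a protein that speeds the inactivation of Gαi, was also higher (log2 fold change 0.51 ± 0.10 SE, edgeR adjusted p = 0.0204). *Pik3cg*, the catalytic subunit of phosphoinositide 3-kinase γ, was lower, at 164 ± 16.6 CPM in the controls against 120.0 ± 8.56 CPM in Rosa-Hes1 (log2 fold change -0.45 ± 0.09 SE, edgeR adjusted p = 0.0222). Both calls held without replicate 2 of either group and were lost without any other library (adjusted p 0.0641 to 0.0889 for *Rgs10* and 0.0582 to 0.0804 for *Pik3cg*). The other lower genes, named after their values were seen, were *Dock2*, the α subunit gene *Gna15* and the arrestin gene *Arrb2*. Their log2 fold changes were -0.35, -0.79 and -0.35 (edgeR adjusted p = 0.0280, 0.0425 and 0.0468). In the list as a whole, leaving out 1 library gave 2 to 5 higher and 0 to 4 lower genes, with 0 lower without replicate 1 or 3 of either group. The genes for the α subunits that these receptors mainly use, *Gnai2* and *Gnai3*, were chosen after their values were seen and had log2 fold changes of 0.03 and 0.00 with standard errors of 0.07 and 0.06.

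Of 32 genes for complement components and regulators, 23 were tested, 1 higher and 0 lower in edgeR (5.85% and 2.41% of all genes tested). The higher gene was *Itgax*, a subunit of complement receptor 4, at 9.35 ± 1.13 CPM in the controls against 16.5 ± 2.88 CPM in Rosa-Hes1 (log2 fold change 0.82 ± 0.15 SE, edgeR adjusted p = 0.0178), a call that held without replicate 2 of either group and was lost without any other library (adjusted p 0.0510 to 0.0691). At an unadjusted p under 0.05 there were 4, a threshold that at least 4322 of the 16954 genes tested passed. DESeq2 called 2, both higher, against 1305 higher and 864 lower over all genes. Over the 23 tested, the median log2 fold change was -0.06.

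Each receptor's pattern over the 6 libraries was set against those of 9096 genes whose mean reached 10 CPM (9097 for *Ccr7*), by the root mean square difference of log2 CPM after each gene was centered on its own mean. For *Ccr1* the nearest gene was *Atp6v0d2*, which encodes a proton pump subunit needed for fusion of osteoclast precursors (difference 0.021, where the root mean square of *Ccr1* itself was 0.38), followed by *Fkbp9* (0.041) and *Slc37a2* (0.043). *C3ar1* was nearest to *Tlr7* (0.063), *Il4ra* (0.064) and *Clec4d* (0.069), genes for innate or cytokine receptors of myeloid cells. For *C5ar1* they were *Abcc3* (0.037), *Adam8* (0.074) and again *Clec4d* (0.086). *Cxcr4* was nearest to *Nek6* (0.088), *Gatm* (0.117) and *Pgm2l1* (0.119). *Cx3cr1* was nearest to *Nudt19* (0.066), the Src family kinase gene *Fyn* (0.080) and *Camk1d* (0.089). *Ccr2* and *Ccr7* had no comparably close gene, the nearest being *Spp1* (0.151), for osteopontin, with *Tnks1bp1* (0.160) and *Pdlim7* (0.164), and *Pkd2* (0.209) with *Spata13* and *Ifi205* (0.219 each). With 16 to 41 counts of *Ccr7* per library, counting noise limits how close any gene could come to it. The measure includes the difference between the groups, so a close match to a called receptor partly restates a similar fold change.

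Levels of cell type markers are given beside those of the receptors. Among the controls, replicate 2 had the highest summed osteoclast markers (13810 CPM, against 10755 and 12718), the highest *Ccr1* and the lowest *Cxcr4*, *Cx3cr1*, *C5ar1* and *C3ar1*. The Rosa-Hes1 libraries did not follow this order. There, replicate 2 had the lowest summed markers (17050 CPM, against 19380 and 20015) and the lowest *Ccr1*, but also the lowest *Cxcr4*, *C5ar1* and *C3ar1*. Replicate 3, with the highest sum, had the highest *C3ar1* and the lowest *Cx3cr1*. Abundant genes dominate this sum, with *Mmp9* alone at 7508 CPM in Rosa-Hes1 replicate 2. Among the Rosa-Hes1 libraries, *Acp5*, *Ctsk*, *Oscar*, *Dcstamp*, *Mmp9* and *Atp6v0d2* were lowest in replicate 2. *Nfatc1* was highest in that replicate (729 CPM, against 662 and 702), and *Calcr*, *Ocstamp* and *Itgb3* were in between. Of the osteoclast markers, the genes with the smallest adjusted p were *Itgb3* (log2 fold change 0.78, adjusted p = 0.00566), *Atp6v0d2* (0.72, adjusted p = 0.00758), *Acp5* (0.74, adjusted p = 0.00917) and *Mmp9* (0.73, adjusted p = 0.00997 from edgeR). *Ctsk* itself, which is part of the sum, was not called. Cre is knocked into the *Ctsk* locus in Rosa-Hes1 cells and not in controls, so the groups differ at this locus by design. Without Rosa-Hes1 replicate 1, *Acp5* and *Mmp9* lost their calls (adjusted p = 0.0536 and 0.0566). Of 12 macrophage and precursor markers, *Cd68* was higher (log2 fold change 0.52 ± 0.09 SE, edgeR adjusted p = 0.0142). *Cd68* lost its call without replicate 1 of either group or Rosa-Hes1 replicate 3 (adjusted p 0.0511 to 0.0693). The summed level of the 12 was 8877 to 10547 CPM in the controls against 8750.4 to 10223 CPM in Rosa-Hes1 libraries. Dendritic cell markers summed to 38.2 to 48.1 CPM in control and 50.6 to 80.8 CPM in Rosa-Hes1, with a median log2 fold change of 0.71 over the 10 tested and *Cd209a* at 0 counts. Of the 12 listed, 6 reached a mean of 1 CPM, so the median rests partly on genes with few counts. Of the 10 tested, edgeR called 1 higher (*Itgax*, also counted among the complement genes above), limma-voom 2 and DESeq2 3, while edgeR called 5.85% of all genes tested higher. Neutrophil markers were present (295 to 572 CPM in control and 279 to 389.5 CPM in Rosa-Hes1), as were stroma and osteoblast markers (211 to 564 and 143 to 442 CPM). Among the controls both sums were highest in replicate 1, which also had the highest *Cxcr4*, *Cx3cr1*, *C5ar1* and *C3ar1*. Among the Rosa-Hes1 libraries both sums were highest in replicate 2, which had the lowest *Cxcr4*, *C5ar1* and *C3ar1*. B cell markers summed to at most 5.96 CPM and T and NK cell markers to at most 8.94 CPM, with *Cd3e* and *Cd3g* at 0 counts. In edgeR and DESeq2, 0 members of these last 4 lists were called. In edgeR, 1 neutrophil, 0 B cell, 0 T and NK cell and 1 stroma gene had an unadjusted p under 0.05. At least 4322 of the 16954 genes tested passed that threshold. The part of the numbers of cells of each type in the receptor differences was not tested.

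**Figure D5:**
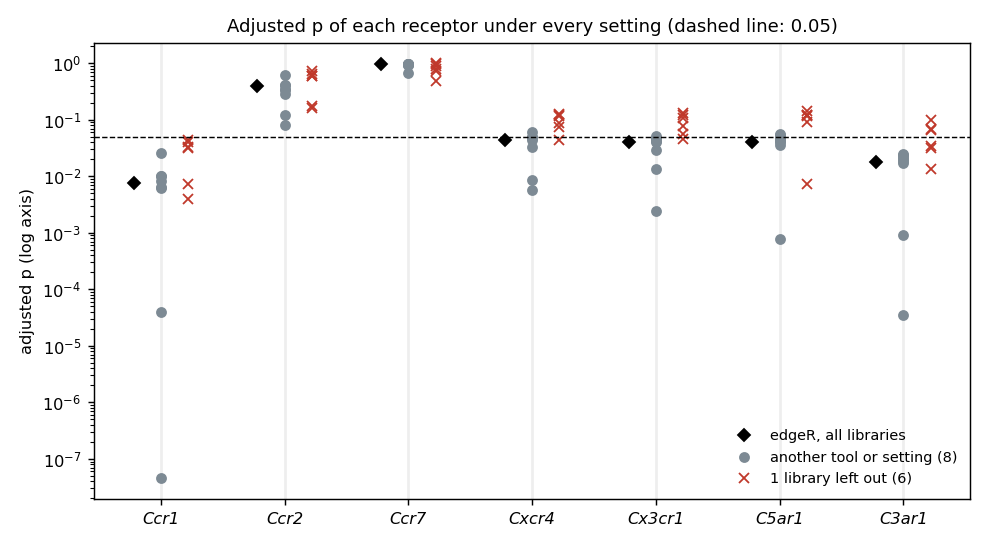
Adjusted p of each receptor (y axis, log scale) in edgeR with all libraries (diamonds), under 8 other tools or settings (circles) and with 1 of the 6 libraries left out (crosses); the dashed line is 0.05. *Ccr1* is below the line throughout, *Cxcr4*, *Cx3cr1*, *C5ar1* and *C3ar1* lie on both sides of it, and *Ccr2* and *Ccr7* are above it.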

How the data were processed

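Per the labels' processing notes and the methods, the authors used Sickle for trimming, HISAT2 2.1.0 for alignment, SAMtools 1.9, Picard to drop PCR duplicates and HTSeq for counting. The deposited values are whole-number counts per Ensembl mouse gene for each library, with no normalization. Of each library's reads, 17.4% to 18.1% were not assigned to a gene. This share includes 5.51% to 6.07% that were ambiguous between genes. The methods name a human genome, whereas the processing notes name GRCm38 and all identifiers are mouse identifiers. Strand setting of the counting: not given in the sources used here. Names and positions came from GENCODE M21 on GRCm38 (99.8% of identifiers matched).

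Genes whose counts over the 6 libraries summed to 10 or more were tested in edgeR 4.0.16 (R 4.3.3; TMM, robust quasi-likelihood, no covariate). Standard errors are the log2 fold change divided by the square root of F. The biological coefficient of variation was 0.124. The fit was tested on simulated data in which all genes had the same dispersion, a check of the fit and not of the receptor calls. Libraries of a group differed by 9.49 to 18.4 times counting noise (chi-square per degree of freedom). Alternatives used DESeq2 1.42.0, limma-voom 3.58.1, other scaling and filters, a replicate block, and each library left out. The study's tool was DESeq2.

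The 7 receptors, the gene lists and the rule for named genes (all 7 receptors, the called members of each list or the 4 with the smallest adjusted p where more than 5 were called, the genes within 500 kb of *Ccr1* or *Ccr2*, *Hes1*, and the 3 genes with the most similar pattern for each receptor of at least 1 CPM) were chosen with earlier results of these data known. The alternatives for called genes of the other lists were added after the data were seen. Some results are not reported here, and the counts over lists and neighboring genes leave them out.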

Additional observations from a re-analysis of the deposited data

How the results depend on the processing

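Of the 7 receptors, *Ccr1* kept its call and *Ccr2* kept its sign, uncalled, under all 14 alternatives. With 1 library left out, the log2 fold change ranged from -0.20 to 0.49 for *Ccr7*, -0.82 to -0.51 for *Cxcr4*, -0.62 to -0.42 for *Cx3cr1*, -0.74 to -0.47 for *C5ar1* and -0.68 to -0.52 for *C3ar1*. The sign of *Ccr7* turned without control replicate 2 (-0.06), without replicate 3 of the controls (-0.20) and without replicate 3 of Rosa-Hes1 (-0.15). The number of lower receptors ranged from 0 to 4 in this way. Over all genes, higher genes numbered 244 to 1555 and lower genes 21 to 1091, with the fewest without Rosa-Hes1 replicate 1 and the most without Rosa-Hes1 replicate 2. With limma-voom the log2 fold changes of the receptors that lost their call were -0.58 for *Cxcr4*, -0.44 for *Cx3cr1* and -0.50 for *C5ar1*, which left 1 lower receptor. *Cxcr4* lost its call at -0.70 with filterByExpr and *C5ar1* at -0.58 with no filter on low counts. The number of genes adjusted over differed in these settings. The standard errors also differed (0.172 against 0.183 for *Cxcr4* and 0.138 against 0.144 for *C5ar1*), and the cause was not tested. Lower genes over all tested numbered 408, against 697 with no filter, 864 with DESeq2 and 917 with limma-voom. The log2 difference in the ratio of *C5ar1* to *C3ar1* ranged from -0.060 to 0.082 with 1 library left out and turned negative without replicate 2 of either group (-0.060 for the control, -0.0033 for Rosa-Hes1) and without Rosa-Hes1 replicate 1 (-0.043). For *Ccr1* to *Ccr2* this difference ranged from 0.11 to 0.62. In the order per kb, between 0 and 2 receptors changed place with 1 library left out, always *C5ar1* with *C3ar1*, and 2 changed place in control with the length of the longest transcript (*Cxcr4* with *Ccr2*).

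The labels do not say whether same-numbered samples form pairs, and the correlations did not settle it. Correlations of same-numbered deviations from the group means were -0.02, -0.15 and 0.37, and not every library correlated best with its own number. With a replicate block, *Ccr1* had a log2 fold change of 0.72 (adjusted p = 0.0257) and *C3ar1* of -0.57 (adjusted p = 0.0237), and the same 5 receptors were called. *Ccr2* stayed uncalled at 0.34, with an edgeR adjusted p of 0.0794 against 0.389 without the block. Among the genes named from other lists, the block lost the call of *Ccr3* (0.54, adjusted p = 0.0626). The block gave 710 higher and 340 lower genes over all tested, and 2 lower genes in place of 4 in the signaling list. *Ccr7* rests on the fewest counts, 16 to 41 per library.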
